A study of Mus musculus with 6 samples.

Results

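Ins1 and Ins2 are the 2 insulin genes of the mouse, and this account covers the open chromatin around both in β-cells with and without Chd4. They are 2 of 21883 protein-coding genes on the chromosomes with peaks. Each was taken with 50 kb on either side of its RefSeq span, and every peak of the 6 deposited lists that touched such a window was used. The windows held 109 of 678034 peaks, which fell into 24 of 156745 regions once peaks overlapping by at least 1 bp were merged: 11 regions and 55 peaks around Ins1, and 13 regions and 54 peaks around Ins2.

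The libraries are ATAC-seq libraries of Tomato-positive β-cells sorted from dispersed islets of tamoxifen-treated mice. In ATAC-seq, the transposase Tn5 inserts sequencing adapters into accessible DNA. The genotype label is Control for 3 libraries and Chd4KO for the other 3, called control and knockout here. Both groups received tamoxifen. The design text calls the knockout animals Chd4Db. No Cre line, driver, strain or age is named, and neither are the animals behind each library, so p-values reflect only how far these samples spread, and that spread may be technical.

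Insulin is made as a single-chain precursor, folded in the endoplasmic reticulum, cut by prohormone convertases and stored in granules. Most mammals have 1 insulin gene. Rodents have 2, since Ins1 arose as a retrotransposed copy of Ins2, and both are active in adult β-cells. Their promoters are bound by the homeodomain factor Pdx1, the basic leucine zipper factor Mafa and the helix-loop-helix factor Neurod1, which recognise A boxes, a Maf element and E boxes. Chd4 is the remodelling ATPase of the NuRD complex, and the series compared accessibility in its presence and absence.

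The sequence at the centre of the Ins1 results is its promoter, taken from RefSeq on GRCm38.p6, which is the mm10 assembly. The table of promoter windows, 250 bases before to 50 after each start, matched 1 of the 2 members, Ins1; the member without an entry is Ins2. Ins1 lies on the plus strand of chromosome 19 (52264297 to 52265015). The first line below is the 250 bases before the RefSeq start (chr19:52264047-52264296), and the second is bases 21 to 50 after it (chr19:52264317-52264346), shown because it holds another E box. Capitals mark TAAT, the core of A boxes, on either strand (ATTA on the other), and GCCATCTG, an E box known from insulin promoters.
Ins1 promoter: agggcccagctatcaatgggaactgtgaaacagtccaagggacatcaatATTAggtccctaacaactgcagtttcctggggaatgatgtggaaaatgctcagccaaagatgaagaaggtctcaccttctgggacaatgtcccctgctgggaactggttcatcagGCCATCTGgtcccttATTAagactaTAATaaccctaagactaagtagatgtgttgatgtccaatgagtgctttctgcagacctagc
Ins1 after the start: ctgcagcttcagcccctctgGCCATCTGcc

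Counting from the start, with the base before it as -1, GCCATCTG began at -86 and at 41, each on the strand shown. Among 32851 promoter windows of the same length, 1.32% held at least 1 match to it on either strand. TAAT had 3 matches in the Ins1 window, and 58.0% of windows had at least 1. CANNTG, the general E box that also covers both GCCATCTG matches, had 4 matches in the Ins1 window and was present in 72.3% of windows. GCTGA, a core of Maf sites, had 2 matches in the Ins1 window and was present in 54.2% of windows. TGACG, the core of the cAMP response element, had none in the Ins1 window and was present in 20.8% of windows. These letter matches are descriptions and not measured binding. Their positions are relative to the RefSeq start, and where transcripts begin was not measured here.

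The peak lists held 100109 to 110693 peaks in the control and 119088 to 124125 in the knockout. Read depth is not given, but each peak's fold and p together fix the pileup of cut-site signal at its summit and the background it was tested against, on the assumption described with the processing. The pileups solved in this way lay within 0.05 of a whole number for at least 99.998% of peaks in every list. The genome-wide background, which follows depth, was 6.02, 5.24 and 5.35 in control libraries 1 to 3 and 5.71, 5.79 and 6.96 in knockout libraries 1 to 3, so the groups overlapped. Pileups are given below as multiples of this background in the same library. Their median over the 75312 regions called in all 6 libraries was 16.3, 19.1 and 17.8 in the control and 23.3, 24.4 and 18.2 in the knockout, with knockout library 3 near the controls.

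The β-cell label was checked against markers, counting peaks within 1 kb of a gene. All 10 β-cell markers had a peak in all 6 libraries, with median summit pileups of 37.4 to 344 times background in the control and 26.0 to 371 in the knockout. Gcg and Ppy, the hormone genes of α- and γ-cells, had no peak in any library, and Sst, the hormone gene of δ-cells, had one in 2 libraries. Of the α-cell markers, Gcg included, 5 of 6 had a peak in all 6 libraries, with a list median of 23.7 times background in the control and 57.5 in the knockout. The δ-cell list had 2 of 3 (list median 19.4 and 59.4), and acinar markers 1 of 6, with Cpa1, Prss2, Ctrb1 and Amy2a5 at no peak. Of the γ-cell markers Etv1 had a peak in all 6 libraries (116 and 188 times background), and so did the ε-cell marker Ghrl (6.65 and 34.4). Duct markers had 4 of 4 (6.51 and 15.5), endothelial 2 of 3 (8.78 and 29.8), mesenchymal 3 of 3 (13.7 and 29.9) and blood 1 of 3. List medians can come from different genes in the 2 groups, and single markers did not all follow them. In the α-cell, duct and mesenchymal lists, Irx1, Ttr, Sox9, Col1a1 and Pdgfrb had lower medians in the knockout. The others of these lists with a peak had higher medians there. The part of these markers in the results at the insulin genes was not tested. In bulk libraries, fewer cells of a type and less signal per cell cannot be told apart.

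The peak over the Ins1 promoter was among the strongest in every list. By the authors' −log10 q, it ranked 310, 10 and 720 in control libraries 1 to 3 and 5, 10 and 286 in knockout libraries 1 to 3. Its −log10 q was 1466, 1539 and 1132 in the control and 2101, 1673 and 1400 in the knockout. The rank was therefore high in both genotypes, and ranks from lists of different length show no change. Its summit lay 46 bases before the RefSeq start in 5 libraries and 102 bases before it in knockout library 1, inside the sequence printed above.

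The peak over the Ins2 start was weaker. Ins2 lies on chromosome 7 (142678656 to 142679726) and is transcribed from the minus strand, so its start is at the higher coordinate. The peak ranked 12489, 13988 and 13013 in the control lists and 17005, 15584 and 15577 in the knockout lists, with −log10 q of 298, 239 and 269, and of 290, 316 and 273. Its summit lay 76 to 162 bases before the start.

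Within each list, the summit pileup at Ins1 exceeded that at Ins2. At Ins1 it was 344, 411 and 310 times background in the control and 449, 371 and 271 in the knockout. At Ins2 it was 101, 106 and 102 in the control and 88.3, 102 and 62.6 in the knockout. The ratio of Ins1 to Ins2 was 3.41, 3.88 and 3.04 in the control and 5.08, 3.65 and 4.32 in the knockout. It was above 3 in all 6 libraries, and the groups overlapped for both genes and for the ratio.

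The fold column places the paralogs lower than their pileups do. The authors' fold at the Ins1 peak was 12.8, 13.0 and 12.0 in the control and 16.9, 15.3 and 13.9 in the knockout, which lay above 68.3% to 78.7% of peaks of the same list. At the Ins2 peak it was 7.28, 6.21 and 7.30 in the control and 9.02, 8.22 and 10.2 in the knockout, above 40.9% to 62.0% of peaks. Summit pileups lay above at least 99.9% of peaks at Ins1 and above 91.1% to 94.3% at Ins2. The fold is taken over the local background, and that background was high at both genes.

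At the Ins1 peak the local background was 26.8, 31.3 and 25.6 times the genome background in the control and 26.4, 24.1 and 19.3 in the knockout. At the Ins2 peak it was 13.7, 16.9 and 13.8 in the control and 9.63, 12.2 and 5.99 in the knockout. Every knockout value at Ins2 lay below every control value, while the groups overlapped at Ins1. The ratio of the knockout mean to the control mean was 0.833 at Ins1 and 0.626 at Ins2. Among 11168 regions called in all 6 libraries whose local background averaged over 5 times the genome background in the control, the median ratio was 0.877, and 33.1% had a ratio below that of Ins1 and 0.627% one below that of Ins2. No test was made on these values, which the lists give for called peaks only.

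In the knockout lists the peak over Ins1 ended earlier inside the gene, while its edge before the promoter lay at nearly the same place. The peak reached from positions -493, -498 and -493, counted in bases from the start, to 608, 601 and 598 in control libraries 1 to 3. In knockout libraries 1 to 3 it reached from -493, -482 and -493 to 329, 391 and 370. The far edge moved by -239 bp on average, with no overlap between the groups, and the near edge by 5.33 bp. Peak width was 1098 ± 5.29 bp in the control and 854 ± 27.0 bp in the knockout (SD, n = 3). A two-sided exact permutation test gave p = 0.1, below which 3 against 3 cannot go. How many other peaks narrow without overlap was not computed, so this is not shown to be particular to Ins1.

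The peak over the Ins2 start showed no such difference. It was 1027, 1030 and 993 bp wide in the control and 1015, 1052 and 956 bp in the knockout, a difference in means of -9 bp with overlapping groups (exact permutation p = 0.8). The width at Ins1 minus that at Ins2 in the same library was 81.3 ± 15.5 bp in the control and -154 ± 54.1 bp in the knockout. It was 70 to 99 bp in the control libraries and -192 to -92 bp in the knockout libraries, without overlap (exact permutation p = 0.1, the smallest possible). Edges mark where signal passes the background it is tested against, so width also depends on that background.

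**Figure D1:**
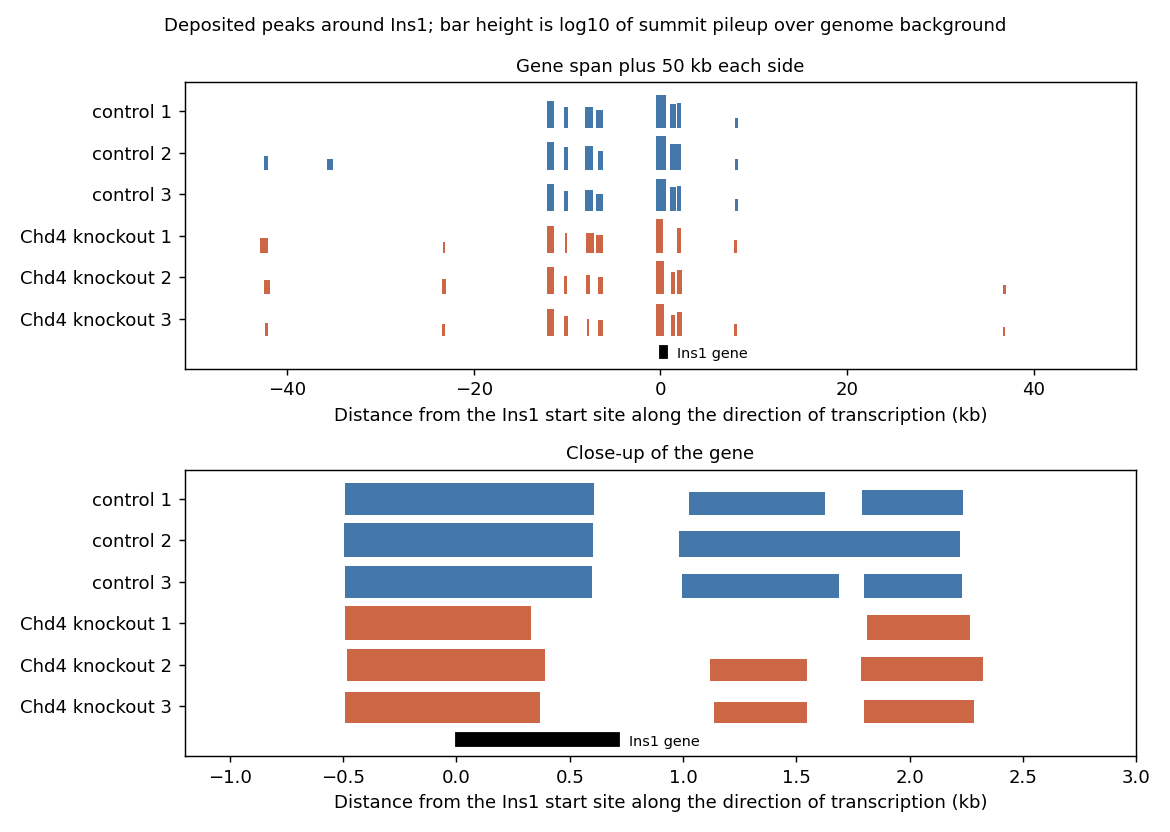
Peaks around Ins1 in 6 libraries (rows), by distance in kb from the RefSeq start along transcription; bar width is the peak and bar height rises with log10 of the summit pileup over genome background. In the close-up, the peak over the start ends at 598 to 608 bases in the control and at 329 to 391 bases in the knockout.

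**Figure D2:**
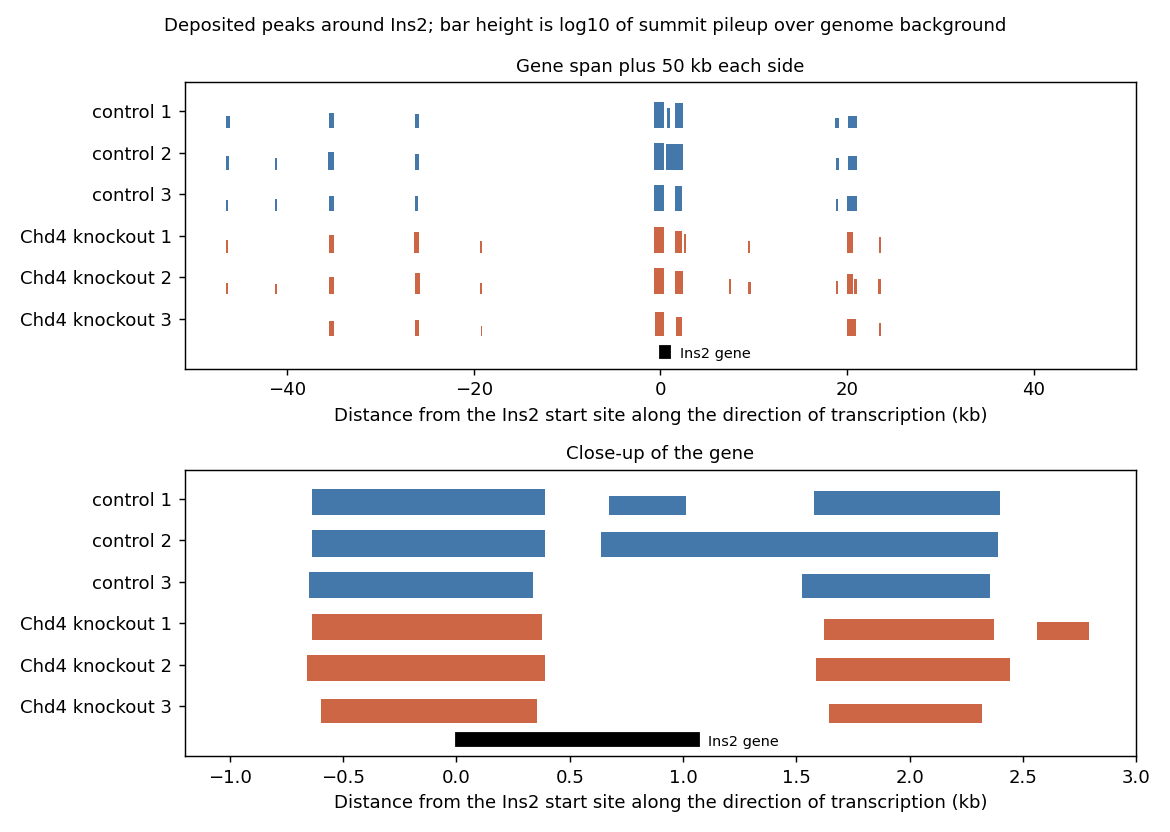
The same plot for Ins2, with distance counted along its own transcription and the black box marking the gene. The peak over the start spans a similar length in all 6 libraries, 956 to 1052 bp, and the peak past the gene is present in all 6.

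Across the 50 kb windows, bases under peaks fell at Ins1, and the decrease at Ins2 did not pass. Covered length is the number of bases under peaks, here scaled so that all libraries have the same total. It is not a read count, and a weak peak adds as much per base as a strong one. At Ins1 it was 5692, 6225 and 5828 bp in control libraries 1 to 3 and 4948, 4806 and 4707 bp in knockout libraries 1 to 3, without overlap. On the log2(length + 300 bp) scale the knockout minus control difference was -0.28 ± 0.07 SE, with an adjusted p of 0.020 by limma. At Ins2 it was 5229, 5598 and 4686 bp in the control and 4426, 5111 and 3765 bp in the knockout, with overlapping groups, a difference of -0.21 ± 0.11 SE on that scale (adjusted p = 0.17 by limma).

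Of 19305 genes tested in the same fit, 12.7% were lower and 7.7% higher in the knockout, so a lower call is common. The median log2 fold change of all genes was -0.06, and 9.34% of genes ranked at or below Ins1 and 16.5% at or below Ins2. Without scaling, Ins1 had -0.12 (limma adjusted p = 0.35) and Ins2 -0.05 (adjusted p = 0.81), and 1.25% of genes were lower and 18.5% higher, with a median of 0.10. Ins1 also missed the threshold without control library 2 (limma adjusted p = 0.052) or without control library 3 (adjusted p = 0.064).

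The decrease at Ins1 lay near the gene. Within 10 kb of it, covered length was 4441, 4151 and 4651 bp in the control and 2971, 2598 and 2735 bp in the knockout, a log2 difference of -0.62 (adjusted p = 0.0025 by limma). In that fit 14.5% of 17707 genes were lower and 7.56% higher, with a median of -0.09. The 10 kb fit was not run without scaling. As deposited, peaks there covered 4042, 4157 and 4243 bp in the control and 3145, 2819 and 2825 bp in the knockout. With 100 kb on each side the log2 fold change of Ins1 was -0.12 (limma adjusted p = 0.27). At Ins2 the 3 windows gave -0.24 (10 kb, adjusted p = 0.23), -0.21 (50 kb, adjusted p = 0.17) and -0.35 (100 kb, limma adjusted p = 0.051).

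The 2 genes were not shown to differ in their change over the 50 kb windows. The log2 covered length of Ins1 minus that of Ins2 was 0.12, 0.15 and 0.30 in the control and 0.15, -0.08 and 0.30 in the knockout. The knockout minus control difference was -0.06 (two-sided exact permutation test, p = 0.9). Within 10 kb it was 0.81, 0.53 and 1.11 in the control and 0.43, 0.19 and 0.69 in the knockout, a difference of -0.38 with overlapping groups (exact permutation p = 0.2). With only the 50000 strongest peaks per library, the difference over 50 kb was -0.92 (exact permutation p = 0.1, the smallest possible). That value depends on where the cut falls. It dropped the region just past Ins1 from every knockout list, where its best peaks ranked 51734, 50929 and 50031, and kept it in every control list. A region 25811 bp before Ins2 was dropped from every control list and kept in every knockout list.

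**Figure D3:**
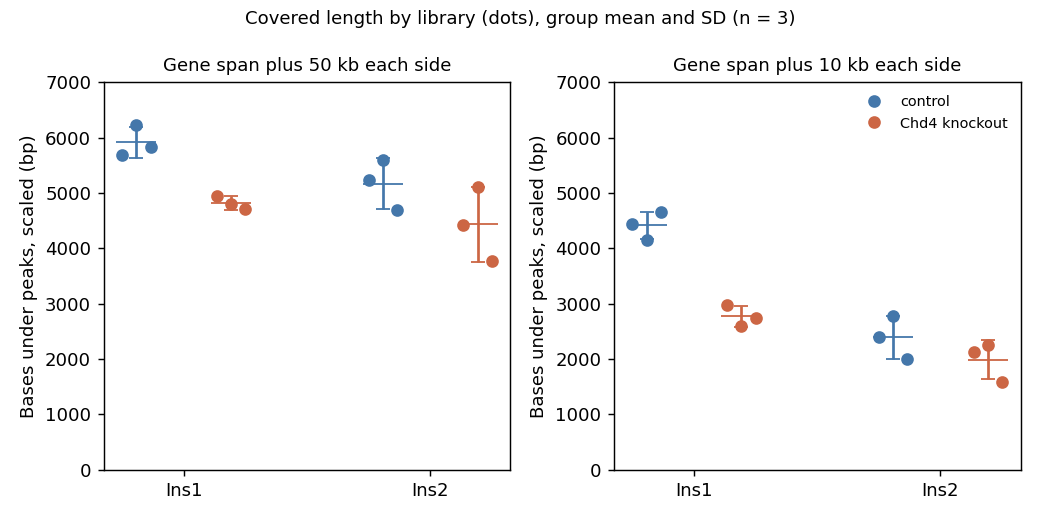
Bases under peaks in bp after scaling, for Ins1 and Ins2, with 50 kb (left) and 10 kb (right) on each side; dots are libraries, and lines with bars are the group mean and SD (n = 3). The Ins1 groups are separate in both panels, at 4151 to 4651 bp against 2598 to 2971 bp with 10 kb, and the Ins2 groups overlap.

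Regions were tested singly where at least 3 libraries called them. Of the 11 Ins1 regions 9 qualified, with 1 higher and 1 lower call. Of the 13 Ins2 regions 10 qualified, with 2 higher and 1 lower call. Over all 118787 regions tested, 16.8% were called higher and 15.3% lower with scaling, and 19.0% higher and 6.54% lower without it, so these shares stand near the background. The 3 higher calls are regions that only the knockout lists contain, which passed the filter through those lists alone, and so had to differ.

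The lower call at Ins1 is the region over its promoter and gene described above (log2 difference -0.48 ± 0.05 SE, adjusted p = 7.0e-04 by limma; -0.33 without scaling, adjusted p = 3.6e-04). The lower call at Ins2 is the region over its start (-0.17 ± 0.04, limma adjusted p = 0.035). Without scaling the Ins2 value was -0.01 (limma adjusted p = 0.84), and its peaks covered 1017 ± 20.6 bp in the control and 1008 ± 48.4 bp in the knockout as deposited. The Ins2 call was lost with any 1 knockout library left out (adjusted p from 0.14 to 0.16 by limma), and without control library 1 or 3 (0.10 and 0.11).

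Past the end of each gene stood another open region, and both were weaker in the knockout lists. The Ins1 one begins 265 bp past the gene span (52265280 to 52266622). Its highest summit pileup was 79.9, 89.7 and 73.8 times background in the control and 70.9, 69.1 and 52.3 in the knockout. The groups did not overlap, and 14.0% of regions called in all 6 libraries were likewise lower without overlap. This Ins1 region had a knockout to control ratio of means of 0.790, above that of 19.1% of them. Control libraries had peaks over both its parts, while knockout library 1 had no peak over the part nearer the gene, which covered 453 bp there against 1048 to 1241 bp in the control (log2 difference -0.71 ± 0.26, limma adjusted p = 0.086; -0.41 and 0.028 without knockout library 1).

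The corresponding region at Ins2 (142677284 to 142679086) begins inside the gene and extends past its end, with its highest summit past the end in every library. The summit pileup was 73.8, 79.2 and 70.6 times background in the control and 37.3, 52.3 and 22.4 in the knockout, without overlap. The ratio of the knockout mean to the control mean was 0.501, and 1.94% of regions called in all 6 libraries had a lower one. Peaks covered 1161, 1753 and 832 bp in the control and 751, 855 and 679 bp in the knockout (log2 difference -0.75 ± 0.22, limma adjusted p = 0.054). In control libraries 1 and 2 peaks also covered part of the gene body here, but not in control library 3 or any knockout library. Without control library 3 the region passed (adjusted p = 0.012 by limma).

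Before Ins1 lay a group of 4 regions called in all 6 libraries. The strongest, 11359 bp before the span (52252121 to 52252938), overlapped between the groups over genome background: its summit pileup was 107, 123 and 108 times background in the control and 114, 110 and 97.8 in the knockout, and its peaks covered 771 to 795 bp in every library. The region 9908 bp before the span (52253943 to 52254389) had 31.4, 43.9 and 28.6 in the control and 27.7, 20.9 and 25.3 in the knockout. The one 7158 bp before it (52256216 to 52257139) had 33.9, 52.3 and 33.6 against 25.8, 21.9 and 14.4. At both of these, every knockout pileup was below every control pileup, as at 14.0% of all regions called in all 6 libraries. The strongest one and the one 6134 bp before the span (17.8, 22.3 and 17.0 against 18.2, 14.2 and 10.6) overlapped between the groups. Divided by each library's median over the regions called in all 6, an alternative chosen after seeing the data, these also separated. Their ratios were then 0.774 and 0.604, and 38.0% of all regions called in all 6 were lower without overlap. By covered length the strongest one had a log2 difference of -0.15 (limma adjusted p = 0.081; 0.028 without control library 2).

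Covered length at the other regions before Ins1 gave negative values that did not pass the test. At the region 7158 bp before the span, peaks covered 850, 872 and 867 bp in the control and 824, 421 and 231 bp in the knockout (log2 difference -0.98 ± 0.36, limma adjusted p = 0.091; 0.028 without knockout library 1). At those 9908 and 6134 bp before it the values were -0.34 (adjusted p = 0.12) and -0.34 (limma adjusted p = 0.19).

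Within the Ins2 window, 2 regions away from the insulin gene showed the reverse. One overlaps Igf2, the gene of insulin-like growth factor 2, a fetal growth factor imprinted in most tissues, and the antisense transcript Igf2os (142658644 to 142659723, 18933 bp past the end of Ins2). It covers an Igf2 start in the RefSeq table (142658804). Its summit pileup was 6.15, 8.21 and 9.90 times background in the control and 30.8, 30.2 and 13.8 in the knockout, a ratio of means of 3.09. Knockout library 3 was lower than the other knockouts and above every control.

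The other lies 25811 bp before the Ins2 start, between genes (142705537 to 142706104). Its summit pileup was 8.47, 10.5 and 10.7 times background in the control and 31.5, 33.7 and 12.5 in the knockout, a ratio of 2.62. Both ratios were moderately high among regions called in all 6 libraries, of which 95.9% and 93.6% had lower ones. Covered length did not follow: the log2 fold change was -0.30 (limma adjusted p = 0.14) at the Igf2 region and 0.15 (limma adjusted p = 0.43) at the other. A further region, 35012 bp before Ins2 in the non-coding gene Gm39116 (142714738 to 142715365), had 9.80, 16.6 and 11.4 in the control and 17.2, 15.7 and 9.05 in the knockout, which overlapped.

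**Figure D4:**
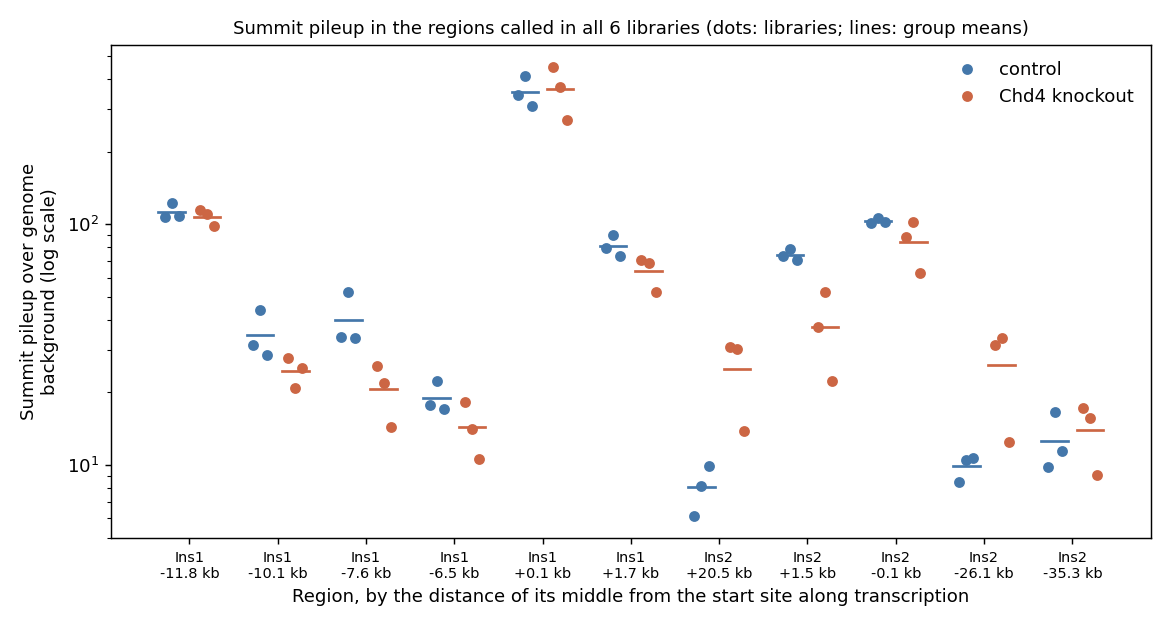
Summit pileup over genome background (log axis) in the 11 regions called in all 6 libraries, named by the gene and the distance of the region's middle from its start; dots are libraries and lines are group means. The region past Ins2 is lower in every knockout library, and the Igf2 region and the one 25811 bp before Ins2 are higher, with knockout library 3 the lowest of its group in these.

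In all, 6 regions at Ins1 and 5 at Ins2 were called in every library. Pileups were lower without overlap in 3 Ins1 regions and 1 Ins2 region, and higher without overlap in 0 and 2. Among all regions called in all 6 libraries, 14.0% were lower and 26.4% higher without overlap. Dividing each library by its own median over those regions, instead of its genome background, lowers knockout values relative to control. Then 5 Ins1 regions and 2 Ins2 regions were lower without overlap and 0 and 2 higher, against 38.0% lower and 18.9% higher of all such regions. The ratio was then 0.820 at the Ins1 promoter, 0.651 at the Ins2 start and 0.393 past Ins2, while the Igf2 region kept 2.43 and the region 25811 bp before Ins2 2.05.

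Of the 24 regions, 3 were called in every knockout and no control library, a share near the 10.3% of all regions, and none was called in every control and no knockout library, against 2.62% of all. The one near Ins1 lay 23017 bp before the gene, between genes (52240840 to 52241280), and peaks covered 210, 441 and 321 bp there in knockout libraries 1 to 3. Those near Ins2 lay in Igf2, 22299 bp past the end of Ins2 (142656095 to 142656357; 246, 258 and 211 bp), and between genes 19070 bp before its start (142698796 to 142699046; 228, 206 and 200 bp). Their summit pileups ranged from 3.88 to 12.1 times background.

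The remaining regions were called in some libraries of one or both groups. At Ins1 they were the region 41890 bp before the gene, with a peak in control library 2 and all knockouts, that 35135 bp before it in control library 2 alone, that 7225 bp past it in all but knockout library 2, and that 35978 bp past it in knockout libraries 2 and 3. At Ins2 they were 6 regions, of which that 17657 bp past the end, in Igf2, had a peak in all controls and 1 knockout (log2 difference -1.59, limma adjusted p = 0.060; 0.026 without knockout library 2). None of those tested passed with all libraries, and the region 41890 bp before Ins1 (limma adjusted p = 0.086) passed without control library 2 (0.0043). That library was the only control with a peak there, and knockout library 2 the only knockout with a peak at the region 17657 bp past Ins2. Leaving them out left peaks in only 1 group, so these 2 regions then had to differ.

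The genes whose profile over the 6 libraries was nearest to that of Ins1 were Esco1 (Euclidean distance 0.025), Frmd7 (0.043), Snu13 (0.049), Rcor1 (0.050) and Mrps21 (0.056). Distances are between log2 scaled covered lengths of the 50 kb windows, each centred on its mean over the 6 libraries. The nearest to Ins2 were Harbi1 (0.081), Ccdc185 (0.093), Riox1 (0.10), Phactr1 (0.10) and Ap1g1 (0.10). These are nearest among 19305 genes over only 6 points, which share library totals and scaling.

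Other genes of the insulin pathway were read from 3 lists in the same fit. Of 22 regulators of the insulin genes, 7 were lower and 0 higher, with a median log2 fold change of -0.09, beside 12.7% lower, 7.7% higher and a median of -0.06 over all genes tested. The 6 with the largest change were the forkhead factors Foxa1 (-0.58 ± 0.13 SE) and Foxo1 (-0.25 ± 0.07), Mafa (-0.27 ± 0.07), Neurod1 (-0.25 ± 0.06), the zinc finger factor Insm1 (-0.21 ± 0.07) and the CREB coactivator Crtc2 (-0.21 ± 0.06), all with adjusted p between 0.013 and 0.043 by limma. Pdx1 had -0.17 ± 0.06 (limma adjusted p = 0.054). Without scaling, Foxa1 was lower and Foxa2 and Hnf4a were higher, beside 1.25% lower and 18.5% higher over all genes.

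Of 20 genes for folding, processing and storing proinsulin, 5 were lower and 0 higher, with a median of -0.14, beside the same 12.7%, 7.7% and -0.06 over all genes. They were the oxidoreductase gene Ero1b (-0.47 ± 0.10), the disulfide isomerase gene Pdia4 (-0.43 ± 0.06), the convertase gene Pcsk2 (-0.23 ± 0.06), its chaperone gene Scg5 (-0.23 ± 0.06) and the vesicle gene Vamp2 (-0.18 ± 0.06), all with adjusted p between 0.0028 and 0.049 by limma. Without scaling, Ero1b and Pdia4 were lower, and the convertase gene Pcsk1 and the chaperone gene Hspa5 were higher, beside 1.25% lower and 18.5% higher over all genes. Of 13 genes of the insulin family and its receptors, 1 was lower and 0 were higher, with a median of -0.09. Over all genes these were 12.7%, 7.7% and -0.06. Without scaling, 0 of the 13 genes were called lower and 0 higher. The lower call with scaling was the receptor gene Igf1r (-0.27 ± 0.06, limma adjusted p = 0.011). Igf2, whose window shares regions with that of Ins2, had -0.15 ± 0.11 (limma adjusted p = 0.34).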

How the data were processed

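ATAC-seq peaks of 3 control and 3 knockout libraries were analysed. The authors deposited 1 narrow peak list per library, so replicates were not pooled. Coordinates are in mm10, named in the submitters' processing notes. Peak names in the deposited files carry MACS2 and shifted cutting sites; the caller's version, its settings and the steps before it are not given in the sources used. The deposited columns used were the fold enrichment at the summit (a ratio), −log10 p and −log10 q. The deposited score is −log10 q times a constant. These are the authors' values and describe peaks within a list. Per the labels' protocols, 27000 to 80000 cells and 14000 to 45000 nuclei were used.

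Pileup and background were solved per peak from fold = (pileup + 1) / (background + 1) and a Poisson p, an assumption about the caller tested by whether pileups came out whole. Depth in reads is unknown, so no counting interval is given. Covered lengths (pseudocount 300 bp for genes with a mean of at least 300 bp, 100 bp for regions called in at least 3 libraries) were fitted with limma 3.58.1 in R 4.3.3 across all genes or all regions, with a trend of variance on mean and Benjamini-Hochberg adjusted p under 0.05. Scripts were tested on simulated data. Alternatives changed the scaling, pseudocount, filter, q minimum, window, peak number, region definition and libraries used. Single values were compared by two-sided exact permutation tests. Genes were from RefSeq spans, without exons.

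Named were the members, all their regions, up to 6 passing genes per list and the 5 nearest profiles per member. The members and lists were chosen with earlier results of these data known.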

Additional observations from a re-analysis of the deposited data

How the results depend on the processing

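Over the 50 kb windows, the log2 fold change of Ins1 was negative in all 16 alternatives and missed the threshold in 4: without scaling (-0.12), with 100 kb on each side (-0.12), and without control library 2 or 3; leaving out 1 library gave -0.30 to -0.24. That of Ins2 was negative and did not pass in all 16 (-0.32 to -0.11 with 1 library left out). The Ins1 minus Ins2 difference reversed with 100 kb (0.22) and ranged from -0.15 to 0.039 with 1 library left out, reversing without knockout library 2, and was -0.92 with the 50000 strongest peaks (exact permutation p = 0.1). The lower call over the Ins1 promoter held in all 15 alternatives and that over the Ins2 start was lost in 9; with fixed 500 bp regions around summits both give -0.14, since every library then has the same length and only the scaling is left. The Ins2 width difference was -31.2 to 16.8 bp with 1 library left out, reversing without knockout library 3, and the region 11359 bp before Ins1 reversed without scaling (0.0044) and with only the 50000 strongest peaks per library (0.00047). The region past Ins2 passed without control library 3 (limma adjusted p = 0.012). The region 17657 bp past Ins2 passed with a pseudocount of 300 or 1000 bp and with fixed regions (limma adjusted p = 0.045, 0.038 and 0.044). In 10 alternatives it did not pass. Among these, it had -0.79 with −log10 q of at least 5 (limma adjusted p = 0.43) and -1.49 without scaling (adjusted p = 0.10). With the 50000 strongest peaks the region past Ins1 had -3.63 and that 25811 bp before Ins2 had 2.42 (limma adjusted p = 2.2e-06 and 2.9e-05). At the first, the best knockout peaks ranked 51734, 50929 and 50031, just outside the cut, and the control peaks inside it. At the second, every control peak fell outside and every knockout peak inside. Both regions were thus left in 1 group only and had to differ, and the -0.92 above includes both.

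The number of genes called, 1486 higher and 2454 lower, became 3571 and 241 without scaling, 944 and 1365 without the filter, and 852 to 1601 and 810 to 2349 with 1 library left out. Regions called, 19995 higher and 18224 lower, became 22513 and 7771 without scaling, 7010 and 6116 with the 50000 strongest peaks, 43626 lower with fixed 500 bp regions around summits, and 769 to 22392 higher and 6150 to 18954 lower with 1 library left out. Regions needed at least 3 calling libraries here too, so leaving out 1 library of a group dropped every region called only in that group. With a knockout library left out, 769 to 930 regions were higher. Otherwise the cause was not tested, except that fixed regions called in every library carry little but the scaling.

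Deviations of same-numbered control and knockout libraries correlated at 0.13, 0.04 and -0.10, and those of different numbers at -0.17 to 0.15. Control libraries 1 and 2 correlated best with their own number, and control library 3 did not. So few libraries cannot settle whether the numbers pair the samples, which the labels do not say. With a replicate block 1499 genes were higher and 2278 lower, Ins1 kept its call (limma adjusted p = 0.030), the Ins2 start lost its own (adjusted p = 0.081) and the region past Ins2 passed (limma adjusted p = 0.037). The block gave 18388 regions higher and 12873 lower.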
